A study of Mus musculus with 4 samples.

Results

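The genes described here are interferon-stimulated genes, genes that cells switch on when interferon reaches them. They were taken from a list of 36 gene symbols, of which 35 had an entry among the 27998 genes of the count tables; Mx2 had none and was not analysed here. A transcript of all 35 was counted in 3 of the 4 libraries, and of 34 in the remaining one, where Cxcl9 had no unique molecular identifier (UMI, the tag that marks 1 captured RNA molecule). They were followed across epithelial clusters, fibroblast states, mesothelial, endothelial and immune cell classes, and across the 2 sorted fractions of each tumor.

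The material was 2 pancreatic tumors of KPC mice on the C57BL/6J background, and the genotype of every library included Trp53LSL-R172H/+ and Pdx1-Cre. In this model a Cre driven by the Pdx1 promoter, active in the pancreatic epithelial lineage, turns on the conditional alleles, so fibroblasts, mesothelium, vessels and leukocytes lie outside the lineage that the driver targets. Dissociated cells gave 4 libraries made with 10x 3' chemistry, and the 2 of the same replicate number were read as 2 fractions of 1 tumor, from the design text and the sample descriptions: "all live" cells, gated on exclusion of the dye DAPI alone, and "sorted CAF" cells (cancer-associated fibroblasts), gated as DAPI-CD45-CD31-EpCAM-PDPN+. No group was treated with interferon, and no tumor-free pancreas was analysed here, so every comparison is between cell classes, states or fractions of the same tumors, with n = 2 libraries per group.

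Type I interferons signal through a receptor whose kinases activate a complex that holds STAT2 and IRF9, which binds the interferon-stimulated response element (ISRE) in the promoters of target genes. Interferon-gamma acts on a different element, the gamma-activated site (GAS), and induces many of the same genes as well as guanylate-binding proteins and the chemokines Cxcl9 and Cxcl10. Targets include sensors of foreign nucleic acids, proteins that block viral entry, translation or release, and the factors that carry the signal itself, and many cells keep some of these genes on without infection.

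The promoters of 29 of the 36 genes were matched in RefSeq (GRCm38.p6) and searched over the 250 bases before the annotated start, on both strands. The ISRE core, spelled GAAANNGAAA, was found in 13 of the 29 (44.8%) and in 936 of 27025 genes (3.46%). The GAS, spelled TTCNNNGAA, was found in 5 of the 29 (17.2%), against 8.13% of all genes. Below, 6 stretches of 100 bases are shown because the results turn on these genes: 5 that hold an ISRE core, in capitals in the direction of the gene (as the core or its reverse complement), and Oasl1, in which neither strand of its 250 bases matched. They read 5′ to 3′ and lie at chr4:156200836-156200935 (minus strand, Isg15), chr19:34640749-34640848 (plus, Ifit1), chr5:92349040-92349139 (minus, Cxcl10), chr3:142620559-142620658 (plus, Gbp2), chr11:58199456-58199555 (plus, Igtp) and chr5:114923140-114923239 (plus, Oasl1).
Isg15: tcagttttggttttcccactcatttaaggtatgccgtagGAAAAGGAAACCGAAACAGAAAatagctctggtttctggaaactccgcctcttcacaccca
Ifit1: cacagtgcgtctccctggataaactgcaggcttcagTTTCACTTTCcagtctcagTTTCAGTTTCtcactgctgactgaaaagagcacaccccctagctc
Cxcl10: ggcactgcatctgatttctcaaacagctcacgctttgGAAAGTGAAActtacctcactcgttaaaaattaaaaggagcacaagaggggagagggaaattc
Gbp2: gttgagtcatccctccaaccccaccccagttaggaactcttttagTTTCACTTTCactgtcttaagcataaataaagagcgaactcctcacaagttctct
Igtp: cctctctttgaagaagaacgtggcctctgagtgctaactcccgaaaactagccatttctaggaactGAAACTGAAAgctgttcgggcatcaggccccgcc
Oasl1: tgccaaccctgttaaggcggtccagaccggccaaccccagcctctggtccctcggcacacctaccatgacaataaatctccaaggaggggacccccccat
The 3 overlapping matches of Isg15 merge into 1 run of capitals, and Ifit1 holds 2 separate ones. A match is a run of letters in this window, not evidence that a factor binds there.

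The 4 libraries held 8282 barcodes and 85230726 UMIs, with a median of 3287 to 13764 UMIs per barcode, and all live 2 was the shallowest. After filters 7827 cells were analysed. They were clustered without the 36 genes and a wider list of interferon genes, so a difference between classes in these genes was not built in by the clustering. Clusters were named only from fixed marker lists, with "-like" understood below. Sorted CAF 1 went against its label: 1056 of its 1386 analysed cells were ductal epithelial-like, with Epcam at 2.68 to 10.7 CPM (UMIs of a gene per 1000000 UMIs of the class) in its main ductal clusters, while 896 of the 1209 cells of sorted CAF 2 were fibroblast-like. Between 4 and 6 barcodes were shared by each pair of libraries, 31 in all. Levels are the CPM of UMIs summed over the cells of a class in 1 library, and fold changes are log2 ± standard error from edgeR's quasi-likelihood test on these sums, with Benjamini-Hochberg adjusted p over all genes tested and a threshold of 0.05. The tests compare these libraries only, and with 2 against 2 no exact two-sided permutation test could fall below 0.333, so each call rests on the spread that the model pools over genes.

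Of the 3 large non-immune classes, ductal epithelial-like cells held the lowest summed level of the 35 genes and mesothelial-like cells the highest. The sum was 964 CPM in ductal cells of all live 1, 1407 in all live 2, 856 in sorted CAF 1 and 1425 in sorted CAF 2. In fibroblasts of the same libraries it was 4650, 5891, 4087 and 4440 CPM, and in mesothelial cells 6148 in all live 1, 5967 in sorted CAF 1 and 8265 in sorted CAF 2 (35 cells). All live 2 held only 10 mesothelial cells, under the minimum of 20, and is left out of the mesothelial values. Among the values given, the 3 ranges did not overlap. Endothelial cells, with only 21 and 30 cells in the all live libraries, held 5146 and 6277 CPM, macrophage or monocyte cells 3152 and 5710, neutrophils 2751 and 5883, and dendritic cells of all live 2 held 7852. T or NK cells (1081 CPM) and B or plasma cells (955 CPM) of all live 2 were as low as the ductal cells. In ductal cells, fibroblasts and mesothelial cells most of the sum came from Ifitm2 and Ifitm3, so the 12 core members, a shorter list without membrane factors (Isg15, Ifit1, Ifit2, Ifit3, Irf7, Oasl1, Oasl2, Rsad2, Usp18, Rtp4, Ddx58 and Cxcl10), were summed as well. The core sum was 596, 598 and 1085 CPM in mesothelial cells of all live 1, sorted CAF 1 and sorted CAF 2, and 38.8 to 77.1 CPM in ductal cells of the 4 libraries, so the classes again lay far apart. Leukocyte transcripts moved with some of these values: a list of 10 leukocyte genes summed to 284 and 942 CPM in ductal cells and 415 and 789 CPM in fibroblasts of the all live libraries, and to 6.75 and 29.3, and 28.6 and 44.4 CPM, in the sorted ones. In fibroblasts the leukocyte genes reached at most 0.0251 (all live 1) and 0.0364 (all live 2) of their level in leukocytes. Of the members, 33 of 34 and 34 of 35 lay above that ratio. In ductal cells 27 of 34 and 31 of 35 lay above the highest leukocyte ratio there. The ratio was not computed over all genes, so these counts cannot set the members apart from other genes. These ratios gauge RNA of leukocytes only, and the part of background RNA was not tested.

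**Figure D1:**
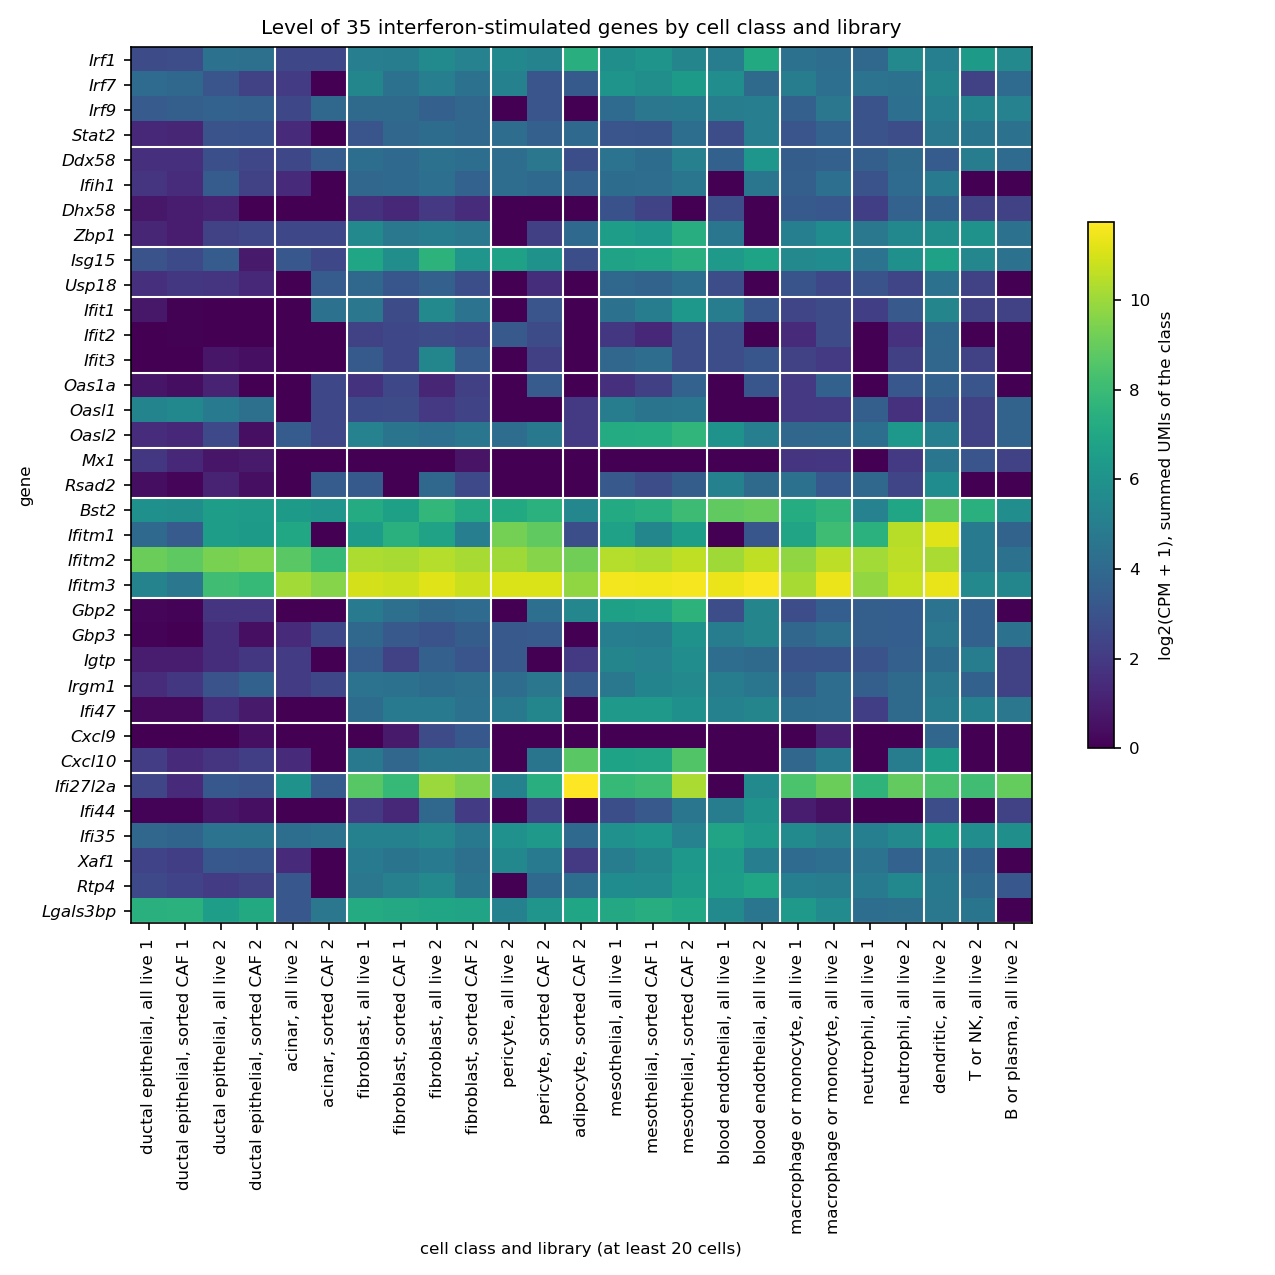
Level of each of the 35 genes (rows, by role) in each cell class and library with at least 20 cells (columns), as log2(CPM + 1), from dark (0) to yellow. The ductal columns are dark for most rows other than Bst2, Ifitm2, Ifitm3, Lgals3bp and Oasl1. The mesothelial columns are bright for Ifitm3 (2863 to 3063 CPM) and green for Gbp2, Oasl2 and Cxcl10.

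**Figure D2:**
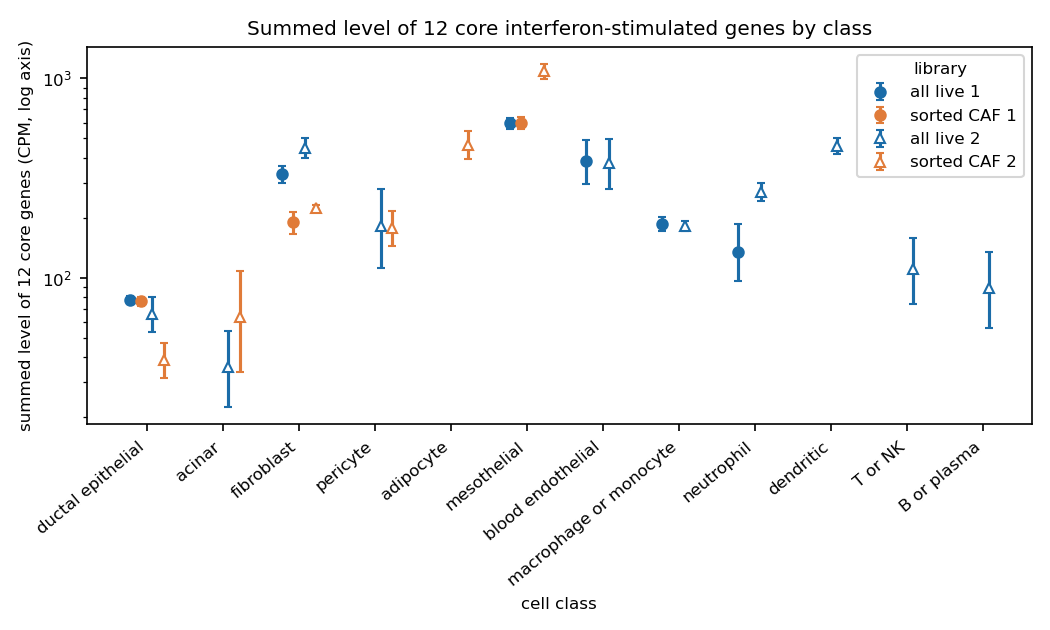
Summed CPM of the 12 core members (y axis, log scale) by cell class (x axis), 1 point per library with at least 20 cells, with its exact 95% Poisson interval, which covers counting error only. Mesothelial points lie between 596 and 1085 and ductal points between 38.8 and 77.1.

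The tests were run within a fraction, against macrophages in the all live libraries and between the 3 large classes in the sorted CAF libraries. In the all live fit 32 of the 35 members passed the filter on low counts (Cxcl9, Ifit2 and Mx1 did not), and in the sorted CAF fit 30 (Cxcl9, Dhx58, Ifit2, Mx1 and Oas1a did not). Members that pass a filter only through a class in which they are high had to differ, so these counts are descriptions. Against macrophages, ductal cells had 18 members lower and 1 higher of the 32, where 20.6% of all genes were called (9.81% lower, 10.8% higher); the members' median log2 fold change was -2.24, that of all genes 0.18. Of all 35 members, 29 were lower in ductal cells than in macrophages in both tumors, as were 23.2% of all genes with a UMI in these sums. Fibroblasts had 2 members higher than macrophages and none lower, where 19.1% of all genes were called (11.8% higher), with a median of 0.19. Endothelial cells had 1 higher and 2 lower (11.4% of genes called, 6.57% higher and 4.81% lower), with a median of 0.36. Neutrophils had 0 called (edgeR, 0.174% of genes; 3 members at an unadjusted p under 0.05, and 0 by DESeq2). Dendritic, T or NK, and B or plasma cells could not be tested, because all live 1 held too few of them.

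In the sorted CAF libraries 22 of the 30 tested members were higher in mesothelial than in ductal cells and 0 lower (15.9% of all genes called, 10.6% higher), with a median of 3.58 against -0.08 over all genes. Fibroblasts had 16 members higher and 1 lower than ductal cells (23.2% of all genes called, 14.2% higher and 9.07% lower), with a median of 2.29. Between mesothelial cells and fibroblasts 2 members were called, both higher in mesothelium (1.28% of all genes called, 0.651% higher), with a median of 1.05. Without sorted CAF 1, the library that goes against its label, no residual degree of freedom is left and tumor 2 stands alone. Over all 35 members, 30 were higher in mesothelial than in ductal cells in both tumors (29.1% of all genes with a UMI), 30 higher in fibroblasts than in ductal cells in both (31.2% of all genes), and 27 higher in mesothelial cells than in fibroblasts in both (24.7% of all genes).

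The transcription factors of the pathway were present in every large class. Irf7, the factor that amplifies type I interferon production, was at 65.6 CPM in mesothelial cells of all live 1, 54.1 in sorted CAF 1 and 82.8 in sorted CAF 2, and between 20.3 and 41.5 CPM in the fibroblasts of the 4 libraries. In ductal cells it was 16.5 and 14.6 CPM in the libraries of tumor 1 and 7.66 and 3.95 in those of tumor 2. The mesothelial values thus lay above all fibroblast values, and those above all ductal values. Irf9, the DNA-binding partner of STAT2, differed little: 9.27 to 12.1 CPM in ductal cells, 11.3 to 15.9 in fibroblasts, and 16.2 to 25.6 in mesothelial cells of these libraries. Stat2 separated the tumors in ductal cells, with at most 1.48 CPM in tumor 1 and 7.02 and 6.72 in tumor 2. Irf1, an early target of interferon-gamma, showed the same split there, 5.70 and 5.80 CPM against 20.4 and 19.4; in fibroblasts it was 31.7 and 30.2 CPM in tumor 1 and 46.6 and 36.2 in tumor 2. The ductal cells of the tumors belonged mostly to different clusters, described further below.

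Of the sensors of RNA and Z-form nucleic acid, Zbp1, Ddx58 and Ifih1 had higher levels in fibroblasts than in ductal cells of every library. Zbp1, which detects Z-form nucleic acid, was at 96.0, 76.8 and 160 CPM in mesothelial cells of all live 1, sorted CAF 1 and sorted CAF 2, at 24.8 to 44.5 CPM in fibroblasts, at 32.9 and 52.0 in macrophages of the all live libraries, and at 0.850 to 4.75 CPM in ductal cells. It was lower in ductal cells than in macrophages (-4.41 ± 0.74, edgeR's quasi-likelihood test, adjusted p = 0.00267) and higher in mesothelial than in ductal cells (5.63 ± 0.81, edgeR, adjusted p = 0.00420). Ddx58, which encodes the RNA sensor RIG-I, was at 15.1 to 19.8 CPM in fibroblasts and 2.09 to 6.38 in ductal cells, without overlap. Ifih1, the sensor MDA5, was at 12.1 to 18.3 CPM in fibroblasts and 1.80 to 9.57 in ductal cells. Dhx58, the regulatory sensor LGP2, was higher in macrophages, with 9.01 and 8.02 CPM in the all live libraries, against 0.697 and 1.28 in their ductal cells (-3.35 ± 0.74, edgeR, adjusted p = 0.00940).

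Isg15, the ubiquitin-like protein that gives the family its name, was at 120 CPM in fibroblasts of all live 1, 192 in all live 2, 54.9 in sorted CAF 1 and 67.8 in sorted CAF 2. In macrophages of the all live libraries it was 45.9 and 50.7 CPM, below both fibroblast values, a difference of 1.49 ± 0.46 (edgeR, adjusted p = 0.0460); the call was lost with coarser clusters (adjusted p = 0.0972) and with no filter on low counts (adjusted p = 0.0830). In ductal cells Isg15 was 7.10, 9.57, 5.25 and 0.791 CPM in the same order of libraries, and in the sorted fraction fibroblasts exceeded them by 3.93 ± 0.69 (edgeR, adjusted p = 0.00540). Mesothelial cells held 108, 118 and 162 CPM in all live 1, sorted CAF 1 and sorted CAF 2, and the endothelial cells of the all live libraries 81.4 and 110. Usp18, the protease that removes ISG15 and damps interferon signalling, was at 6.18 to 14.3 CPM in fibroblasts, 12.4 to 17.7 in these mesothelial cells and 1.58 to 2.80 in ductal cells.

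The IFIT proteins bind foreign RNA and block its translation. Ifit1 was at 24.1 CPM in fibroblasts of all live 1, 45.2 in all live 2, 5.57 in sorted CAF 1 and 20.9 in sorted CAF 2, and at 4.50 and 5.45 CPM in macrophages of the all live libraries, a difference of 2.57 ± 0.69 (edgeR, adjusted p = 0.0236). In ductal cells of the sorted libraries 1 UMI of Ifit1 was counted. The ratio of the summed levels was 435 for fibroblasts over ductal cells (95% counting interval 77.4 to 17268) and 950 for mesothelial over ductal cells (166 to 37989). Ifit3, which stabilises Ifit1, also had 1 UMI in those ductal cells, with ratios of 202 (35.5 to 8053) and 325 (53.5 to 13292). In all live cells its ductal count was again 1 UMI, a ratio to macrophages of 0.0122 (0.0003 to 0.0726). Ifit3 reads can be split with its near-identical neighbour Ifit3b, so its level is uncertain. Ifit2 did not pass the filter in either fit and lay between 3.77 and 5.65 CPM in fibroblasts and had 1 UMI in all ductal cells together.

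Oasl1 was, with Lgals3bp, 1 of only 2 members higher in ductal cells than in macrophages in both tumors. It encodes an OAS-like protein that restrains translation of Irf7 in mice. It was at 38.0, 26.8, 43.8 and 19.0 CPM in ductal cells of all live 1 and 2 and sorted CAF 1 and 2, and at 5.28, 2.82, 5.57 and 4.36 CPM in the fibroblasts of these libraries. All 4 ductal values lay above all 4 fibroblast values, and fibroblasts were lower by 2.87 ± 0.58 in the sorted fraction (-2.87, edgeR, adjusted p = 0.00939). Macrophages of the all live libraries held 2.81 and 3.03 CPM, and ductal cells exceeded them by 3.39 ± 0.69 (edgeR, adjusted p = 0.00744). Mesothelial cells held 30.4, 21.9 and 23.7 CPM, within the range of the ductal values. No UMI of Oasl1 was counted in 21 and 30 endothelial cells, which allows up to 17.4 and 23.5 CPM, the level of 3 UMIs. Its relative Oasl2 did not share this pattern: it was at 148, 156 and 211 CPM in mesothelial cells of all live 1, sorted CAF 1 and sorted CAF 2, 18.3 to 35.4 in fibroblasts and 0.395 to 5.10 in ductal cells. Oasl2 was higher in mesothelial cells than in fibroblasts (2.93 ± 0.48, edgeR, adjusted p = 0.0326) and than in ductal cells (7.04 ± 0.59, adjusted p = 0.00128). Oas1a, a synthetase of the messenger that activates RNase L, stayed at or below 11.8 CPM in each of these 3 classes, and its reads can be split with the near-identical Oas1g.

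Mx1, a GTPase against influenza-like viruses, and Rsad2 (viperin, an enzyme that makes a chain-terminating nucleotide) were scarce. Mx1 had no UMI in mesothelial cells and in fibroblasts of 3 libraries, was at 0.638 to 2.79 CPM in ductal cells, and reached 23.3 CPM in dendritic cells of all live 2. Rsad2 was at 51.5 CPM in those dendritic cells, where 1 cell held 22 of the 53 UMIs, and at 20.3 and 8.47 CPM in macrophages of all live 1 and all live 2, where 1 cell of all live 1 held 43 of 72. It was lower in ductal cells than in macrophages (-4.78 ± 0.90, edgeR, adjusted p = 0.00440).

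The membrane restriction factors made up most of the summed level in ductal cells, fibroblasts and mesothelial cells. Ifitm3, which blocks fusion of viruses in endosomes, was at 2984, 2863 and 3063 CPM in mesothelial cells of all live 1, sorted CAF 1 and sorted CAF 2, at 1811 to 2337 in fibroblasts of the 4 libraries, and at 37.6, 284, 24.4 and 230.1 in ductal cells of all live 1 and 2 and sorted CAF 1 and 2. Macrophages of the all live libraries held 1181 and 2664 CPM, and ductal cells were lower by 3.83 ± 0.77 (-3.83, edgeR, adjusted p = 0.00591). In the sorted fraction fibroblasts exceeded ductal cells by 3.84 ± 0.87 (edgeR, adjusted p = 0.0154). T or NK cells (45.8 CPM) and B or plasma cells (40.5 CPM) of all live 2 had as little Ifitm3 as the ductal cells of tumor 1. Ifitm2, which shares this function, was spread more evenly: 462 to 742 CPM in ductal cells, 1175 to 1369 in fibroblasts, and 26.7 and 20.2 CPM in T or NK and B or plasma cells. Ifitm1 was highest in dendritic cells (2302 CPM) and neutrophils (1443 CPM) of all live 2. In endothelial cells it had 1 UMI over both all live libraries, a ratio to macrophages of 0.0154 (counting interval 0.00039 to 0.0859); this lower level was called (edgeR, adjusted p = 0.0234), though not with likely doublets kept (adjusted p = 0.0698). Bst2 (tetherin, which holds budding virions at the cell surface) was at 465 and 517 CPM in endothelial cells, against 154 and 204 in macrophages, 103 to 219 in fibroblasts and 56.4 to 95.1 in ductal cells; the endothelial difference from macrophages did not pass the test.

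The interferon-gamma-type GTPases had a higher summed level in mesothelial cells than in fibroblasts, macrophages and ductal cells. These proteins act on the membranes around intracellular pathogens. Summed over Gbp2, Gbp3, Igtp, Irgm1 and Ifi47, they were at 276 CPM in mesothelial cells of all live 1, 292 in sorted CAF 1 and 412 in sorted CAF 2. Fibroblasts held 72.6 to 88.2 CPM, macrophages 53.8 and 71.5, ductal cells 3.09 to 17.8, and the few endothelial cells of the all live libraries 116 and 157. Gbp2 was at 102, 109 and 191 CPM in mesothelial cells, 14.1 to 26.4 in fibroblasts and at most 2.55 in ductal cells, so the classes did not overlap. It was higher in mesothelial than in ductal cells (7.79 ± 1.10, edgeR, adjusted p = 0.00400), higher in fibroblasts than in ductal cells (4.76 ± 1.06, adjusted p = 0.0144), and lower in ductal cells than in macrophages (-3.94 ± 1.13, adjusted p = 0.0322; DESeq2 gave 0.0599). Its difference between mesothelial cells and fibroblasts did not pass. Ifi47 was at 78.4, 79.0 and 59.2 CPM in mesothelial cells and 16.6 to 27.0 in fibroblasts, and exceeded the ductal level by 7.53 ± 0.65 and 6.00 ± 0.64 (edgeR, adjusted p = 0.00129 and 0.00106). Gbp3 had 1 UMI in ductal cells of the sorted libraries, a ratio of 878 for mesothelial over ductal cells (153 to 35139.7) and 224 for fibroblasts (39.5 to 8924). Igtp was at 39.2, 35.8 and 53.2 CPM in mesothelial cells of all live 1, sorted CAF 1 and sorted CAF 2, at 3.98 to 11.3 in fibroblasts and at most 2.77 in ductal cells, and Irgm1 at 25.0, 38.0 and 45.4, at 16.9 to 21.1 and at most 11.5 CPM. Each of these GTPases had its ductal values below its fibroblast values in all 4 libraries. In the all live libraries Gbp3 and Ifi47 were lower in ductal cells than in macrophages by 5.55 ± 1.02 and 5.24 ± 0.93 (-5.55 and -5.24, edgeR, adjusted p = 0.00385 and 0.00329).

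Cxcl10, a chemokine that draws CXCR3-bearing T cells, was at 112, 114 and 371 CPM in mesothelial cells of all live 1, sorted CAF 1 and sorted CAF 2, and at 25.6, 22.6, 13.5 and 21.7 CPM in the fibroblasts of all live 1 and 2 and of sorted CAF 1 and 2. It was higher in mesothelial cells than in fibroblasts (3.65 ± 0.66, edgeR, adjusted p = 0.0458) and than in ductal cells (6.54 ± 0.77, adjusted p = 0.00224). The level came from few cells: in sorted CAF 2, 7 mesothelial cells had a Cxcl10 UMI and 1 of them held 84 of the 188. Adipocyte-like cells of sorted CAF 2 held 420.0 CPM and dendritic cells of all live 2 held 94.2, where 1 cell had 40 of 97 UMIs. Cxcl9, which binds the same receptor, was near its detection limit in most classes, at 8.45 CPM in fibroblasts of sorted CAF 2 and 13.6 in dendritic cells of all live 2.

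Ifi27l2a, a small protein of the ISG12 family, was among the most uneven members. It was at 416, 994, 235 and 708 CPM in fibroblasts of all live 1 and 2 and sorted CAF 1 and 2, at 341 and 543 in macrophages, and at 1.65 to 8.30 in ductal cells. It was lower in ductal cells than in macrophages (-6.33 ± 0.96, edgeR, adjusted p = 0.00167), as were 6 UMIs in endothelial cells (-4.92 ± 1.01, adjusted p = 0.0104). Its mesothelial level was 235 and 269 CPM in tumor 1 and 1235 in sorted CAF 2, and adipocyte-like cells of that library reached 3432. Ifi44, of unknown biochemical function, stood out in endothelial cells: 13 UMIs gave 29.1 and 62.7 CPM, against 0.844 and 0.454 in macrophages, a ratio of 73.5 (26.1 to 236; log2 5.56 ± 1.14, edgeR, adjusted p = 0.0128). Lgals3bp, a secreted galectin-binding glycoprotein, was as high in ductal cells (95.7 to 183 CPM) as in fibroblasts (115 to 149) and mesothelial cells (130.1 to 157). Xaf1, an antagonist of the inhibitor of apoptosis XIAP, Rtp4, a receptor chaperone that limits interferon responses, and Ifi35 lay in the common order, with ductal cells lowest; Rtp4 was at 3.19 to 5.09 CPM in ductal cells and 22.1 to 45.2 in fibroblasts.

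Between the sorted CAF and the all live fraction, fibroblasts of the same tumors were compared. In fibroblasts 24 of the 28 tested members had a negative log2 difference, sorted minus all live, with a median of -0.29 against 0.006 over all genes. With edgeR 0 members passed (0% of all genes called; 2 members at an unadjusted p under 0.05, and 0 by DESeq2). With the tumor as a block, 5 were lower in the sorted fraction, where 0.861% of all genes were called and 0.521% were lower. Isg15 differed by -1.35 ± 0.20 (edgeR with the block, adjusted p = 1.84e-09), Ifit1 by -1.38 ± 0.31 (0.00152), Ifit3 by -1.88 ± 0.40 (0.000526), Rsad2 by -1.99 ± 0.54 (0.0299) and Ifi27l2a by -0.65 ± 0.16 (0.00437). Within tumor 1 Isg15 differed by -1.12 and within tumor 2 by -1.43. Rsad2 had 12 and 10 UMIs in the all live fibroblasts and no UMI in those of sorted CAF 1, which allows up to 2.39 CPM. Some values hung on 1 library: without all live 2, Ifit3 without the block was -0.14 and Ifi27l2a 0.27, and without sorted CAF 1 Ifi27l2a was 0.020. Without all live 1, Ifit3 alone passed without the block (-2.42, edgeR, adjusted p = 0.0496). The leukocyte genes moved with the fraction in the same fibroblasts, from 415 and 789 CPM to 28.6 and 44.4, and the make-up of the fibroblast class differed between libraries; their part in the difference was not tested. Ductal cells had 0 of 26 members called between fractions (edgeR, 0% of genes; 0 at an unadjusted p under 0.05, and 0 by DESeq2), with a median of -0.06. The difference of the fraction effects between fibroblasts and ductal cells had 0 of 30 members called (edgeR, 0% of genes; 0 at an unadjusted p under 0.05, and 0 by DESeq2).

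**Figure D3:**
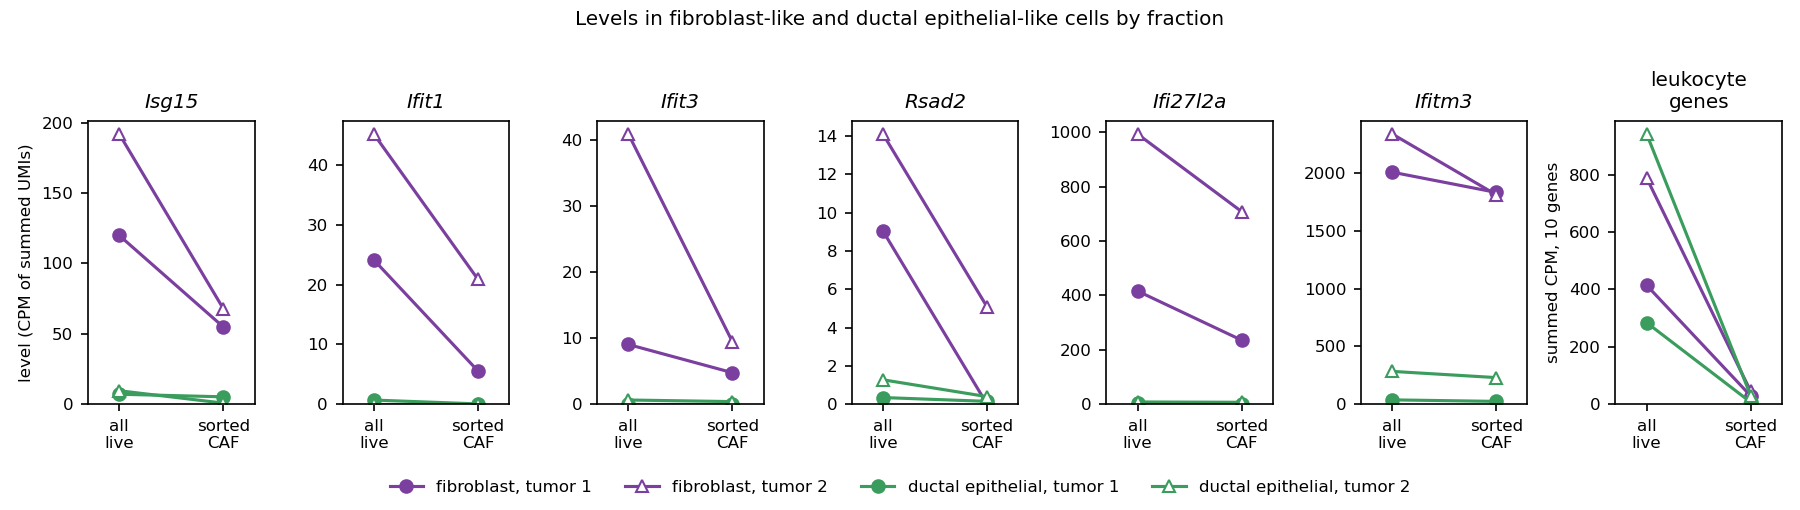
CPM (y axis, linear from 0) of Isg15, Ifit1, Ifit3, Rsad2, Ifi27l2a and Ifitm3, and summed CPM of the 10 leukocyte genes, in the all live and sorted CAF fractions (x axis) of fibroblasts (purple) and ductal cells (green), with lines joining the libraries of 1 tumor. In fibroblasts Isg15 goes from 120 to 54.9 in tumor 1 and from 192 to 67.8 in tumor 2, and the leukocyte genes from 415 to 28.6 and from 789 to 44.4.

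The order of the fibroblast states differed between the tumors for part of the members. Cluster 2 was myofibroblast-like, the contractile state of cancer-associated fibroblasts, with Acta2 at 1461 to 1973 CPM, and cluster 7 inflammatory-like, the cytokine-secreting state, with Clec3b at 697 to 1122 CPM; the other state held 38.5 to 140 and 1.75 to 17.9 CPM of these markers. With likely doublets kept, inflammatory-like fibroblasts formed a cluster led by Sema3c and Cd55 and another led by Cxcl13 and Crocc2. Cluster 7 had all of these among its leading genes. Whether the mix of cells inside a state differed between the tumors was not tested. Cluster 8, also fibroblast-like, met under 3 markers of either state and was left out. It held 80 of 148 fibroblasts of all live 1 and 121 of 180 of sorted CAF 1. In all live 2 it held 19 of 115, and in sorted CAF 2 116 of 896. The inflammatory-like cells of tumor 1 were 22 in all live 1 and 21 in sorted CAF 1. In tumor 2, 33 of the 35 members were higher in inflammatory-like cells in both libraries (19.6% of all genes with a UMI). In tumor 1, 16 were lower in both (21.8% of all genes). Isg15 was at 239 CPM in myofibroblast-like and 20.7 in inflammatory-like cells of all live 1, and at 129 and 38.4 in sorted CAF 1. In tumor 2 it was at 38.4 and 549 CPM in all live 2, and at 40.7 and 124 in sorted CAF 2. Irf7 ran in parallel, with 76.9 and 5.18 CPM (all live 1), 50.9 and 19.2 (sorted CAF 1), 10.3 and 86.7 (all live 2) and 6.19 and 51.3 (sorted CAF 2). Both fractions of a tumor gave the same direction for either gene.

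Those 16, among them Ifit1, Ifi44, Irf9, Usp18, Xaf1, Igtp and Irgm1, were all higher in both libraries of tumor 2. The opposite pattern was found in 0 members. Of all genes with a UMI 3.49% and 4.66% had these patterns. As 33 of the 35 members were higher in both libraries of tumor 2, little room was left for the opposite pattern. Some of the 16 rest on small differences, such as Stat2, lower by 0.06 CPM (-0.06) in all live 1. The difference between the tumors was tested with the 2 fractions of a tumor as its replicates, a test chosen after these values were seen. It called 9 of the 18 members that passed the filter, all with a higher inflammatory-minus-myofibroblast difference in tumor 2 (1.09% of all genes called, 0.596% in this direction), and the members' median was 2.29 against 0.011 over all genes. The fractions of a tumor are not separate animals, so the test compares these 2 tumors only. The largest differences were those of Irf7 (5.82 ± 0.66, edgeR, adjusted p = 0.000411) and Isg15 (5.71 ± 0.90, 0.00317), followed by Rtp4 (4.21 ± 0.87, 0.0218), Bst2 (3.89 ± 0.57, 0.00249), Zbp1 (3.79 ± 0.69, 0.00987) and Oasl2 (3.69 ± 0.74, 0.0206). Ifi27l2a (3.12 ± 0.41, 0.00140), Lgals3bp (2.08 ± 0.37, 0.00848) and Ifitm3 (1.24 ± 0.29, 0.0489) completed the 9. Irf7, Isg15, Bst2 and Ifi27l2a were called whichever library was left out. Zbp1, Oasl2 and Lgals3bp were not called without all live 1 or without sorted CAF 2, Ifitm3 not without all live 1 or sorted CAF 1, and Rtp4 not without all live 1; with that library left out 4 of the 9 passed.

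Within tumor 1, 5 of the 18 members were lower in inflammatory-like cells and 1 higher (8.28% of all genes called, 3.44% lower and 4.84% higher), with a median of -0.76; within tumor 2, 15 were higher (19.5% called, 11.2% higher), with a median of 1.52. These tests also took the 2 fractions of a tumor as replicates, so each describes that tumor only. Members that passed the filter through the state in which they are high had to differ. In tumor 1 the lower members were Isg15 (-2.73, edgeR, adjusted p = 0.0352), Irf7 (-2.53, 0.0149), Zbp1 (-2.41, 0.0227), Oasl2 (-2.39, 0.0367) and Bst2 (-2.38, 0.00390). Their inflammatory counts were small, 10 UMIs of Isg15 and 4 of Irf7 over both libraries, and Oasl2 had 3 against 43 in myofibroblast-like cells, a ratio of 0.189 (95% counting interval 0.0374 to 0.590). The counting ratios of Isg15 were 0.146 (0.0690 to 0.275) in tumor 1 and 3.67 (3.17 to 4.26) in tumor 2, and those of Irf7 were 0.172 (0.0454 to 0.462) and 8.31 (5.96 to 11.8). Ifi27l2a was higher in inflammatory-like cells in all 4 libraries, with 528 and 767 CPM in all live 1 and 185 and 1772 in sorted CAF 2, and differed in size: the counting interval of its ratio was 1.27 to 1.77 in tumor 1, and the ratio 9.86 (9.28 to 10.5) in tumor 2. Cxcl10 was higher in inflammatory-like cells in both tumors (2.82 and 2.27, edgeR, adjusted p = 0.0246 and 0.000848), and its difference between tumors of -0.54 ± 0.89 did not pass (adjusted p = 0.891).

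The core sum crossed as well, but it counts the UMIs of Isg15, Irf7, Rtp4 and Oasl2 again and is not separate support. It was 536 and 77.7 CPM in myofibroblast-like and inflammatory-like cells of all live 1, and 327 and 224 in sorted CAF 1. In tumor 2 it was 113 and 1242 in all live 2, and 130.1 and 423 in sorted CAF 2. In sorted CAF 1 the core members Cxcl10, Ifit3 and Ddx58 went the other way, higher in inflammatory-like cells. Some of the high values came from single cells: in inflammatory-like cells of all live 2, 1 cell held 32 of the 114 Isg15 UMIs (28.1%). The leukocyte genes were at 468 and 197 CPM in the 2 states of all live 1 and 743 and 1141 in all live 2, moving with the members there. In sorted CAF 1 they were at 10.7 and 19.2, and in sorted CAF 2 at 42.8 and 38.2. The part of leukocyte RNA in the state differences was not tested. Of the antigen-presenting fibroblast markers, 6 genes summed to 811 and 98.4 CPM in the states of all live 1 and 449 and 1613 in all live 2, with 370.0 and 454 in sorted CAF 1 and 540 and 509 in sorted CAF 2; their part in the result was not tested. Comparing the states over both sorted libraries, with tumors as replicates, 1 of 30 members passed, Cxcl10 (2.13 ± 0.46, edgeR, adjusted p = 0.0414; 2.02% of all genes called, 1.22% higher). It was at 8.04 and 70.3 CPM in sorted CAF 1, and reached 43.2 in the inflammatory-like cells of sorted CAF 2, but 10 of the 11 inflammatory UMIs of sorted CAF 1 came from 1 cell, and the call was lost with DESeq2 (adjusted p = 0.136). With the tumor as a block 12 members were higher in inflammatory-like cells, where 10.4% of all genes were called (5.88% higher).

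**Figure D4:**
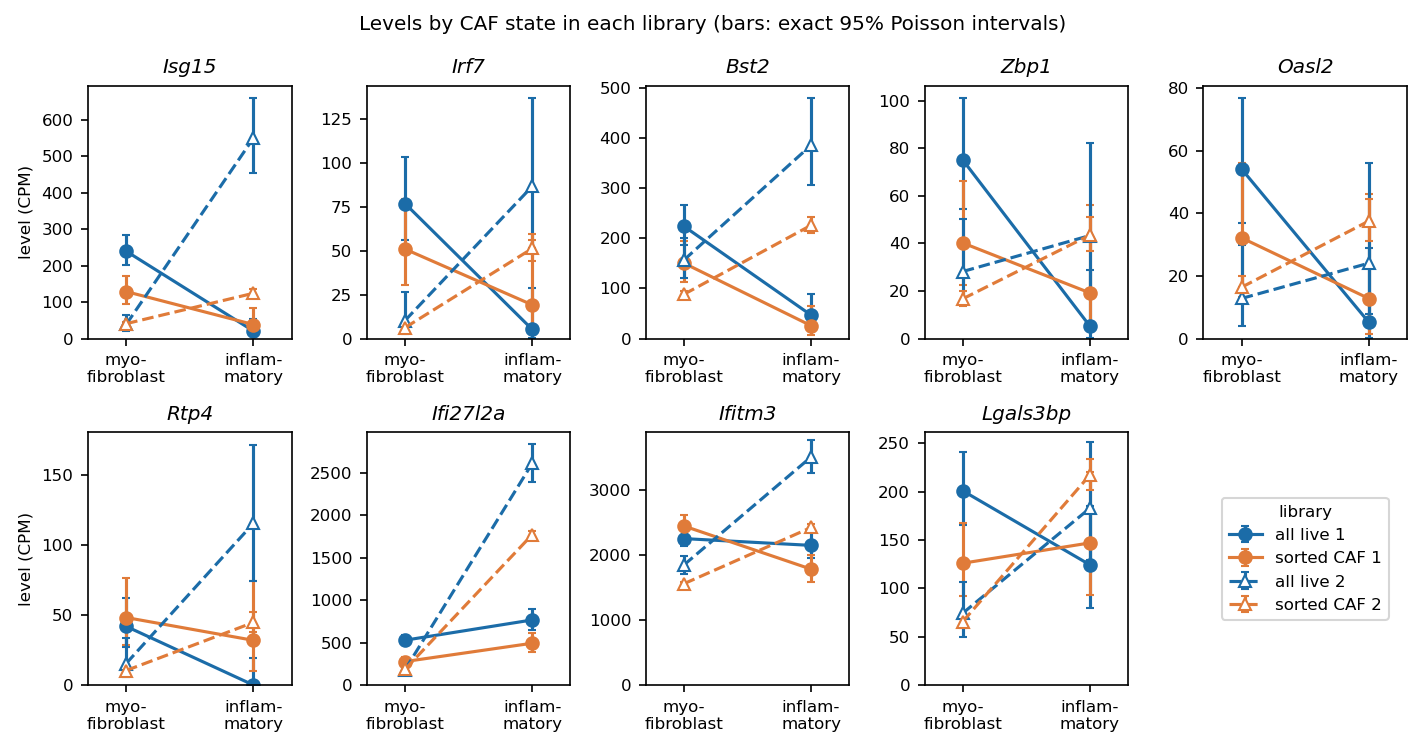
CPM (y axis, linear from 0) of the 9 members whose state difference differed between tumors, in myofibroblast-like (cluster 2) and inflammatory-like (cluster 7) fibroblasts (x axis), with 1 line per library and exact 95% Poisson intervals. The lines of Isg15 go down in both libraries of tumor 1 (239 to 20.7 and 129 to 38.4) and up in both of tumor 2 (38.4 to 549 and 40.7 to 124).

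Ifitm3 differed in level among the ductal clusters, and less between the fractions within a cluster. Clusters 1, 3, 4 and 5, which held nearly all ductal cells of tumor 1 and little Epcam (2.68 to 15.9 CPM there), had Ifitm3 at 42.1, 23.0, 43.4 and 34.6 CPM in all live 1 and at 20.3, 23.8, 29.6 and 29.0 in sorted CAF 1. Cluster 16, with Epcam at 2891 and 2467 CPM and Mmp7 among its leading genes, held 155 CPM of Ifitm3 in all live 1 (31 cells) and 327 in all live 2 (122 cells). Cluster 20, led by the gastric-type genes Tff2 and Gkn3, held 327 CPM in all live 2 and 313 in sorted CAF 2, although 1 of its 28 cells in all live 2 had 49 of the 88 UMIs. The 22 cells of cluster 5 in sorted CAF 2 held 8.29 CPM, so tumor 2 had ductal cells with little Ifitm3 as well. Leukocyte genes were at 926 and 1133 CPM in cluster 16 and at 229 to 321 in clusters 1, 3, 4 and 5 of all live 1, moving with Ifitm3; cluster 20 of sorted CAF 2 had 35.5 CPM of them beside its 313 CPM of Ifitm3. Their part in the result was not tested. Oasl1 ran the other way, with 30.8 to 46.8 CPM in clusters 1, 3, 4 and 5 of all live 1 and 38.2 to 49.4 in sorted CAF 1, against 13.9 and 26.9 in cluster 16 and 26.0 and 15.6 in cluster 20. Lgals3bp was at 66.5 and 89.3 CPM in cluster 16 of all live 1 and all live 2, below the 164 CPM or more of clusters 1, 3, 4 and 5 of all live 1, and at 178 and 170.4 in cluster 20 of all live 2 and sorted CAF 2. These differences were not tested.

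**Figure D5:**
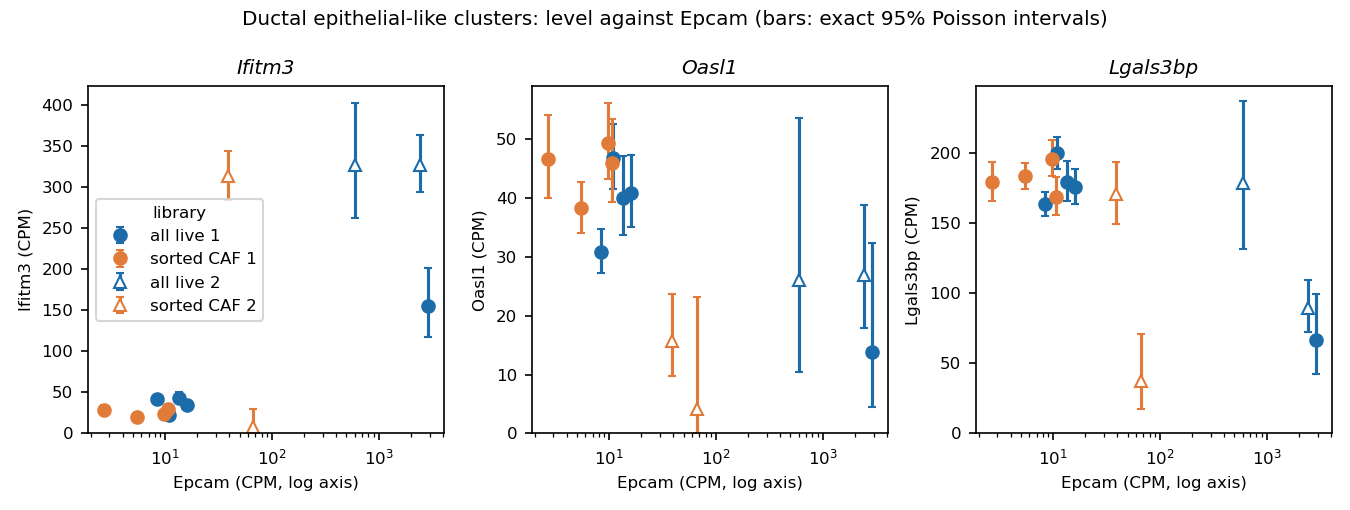
CPM of Ifitm3, Oasl1 and Lgals3bp (y axes, linear from 0) against Epcam CPM (x axis, log scale), 1 point per ductal cluster and library with exact 95% Poisson intervals. Ifitm3 lies between 20.3 and 43.4 in the low-Epcam clusters of tumor 1 and between 155 and 327 in clusters 16 and 20.

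Myeloid clusters also differed among themselves. Ifitm3 reached 5269 CPM in cluster 9 of all live 2, a monocyte cluster with Ly6c2, against 1908 and 2472 in cluster 0 of all live 1 and all live 2, 1151 and 1425 in cluster 6, and 752 and 1338 in cluster 13, all macrophage-like. The neutrophil clusters of all live 2 split as well: cluster 11 had 1891 CPM of Ifitm1 and 366 of Ifitm3, and cluster 14 had 1153 and 2740 CPM. Oasl2 was at 127 CPM in cluster 11. These are values of 1 or 2 libraries with no test.

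In single cells, thinned to 1500 UMIs each so that depth was equal, Isg15 was detected in 13.6% of mesothelial cells of all live 1 (95% Clopper-Pearson interval 7.95 to 21.1), 13.5% in sorted CAF 1 and 17.1% in sorted CAF 2. The shares in fibroblasts were 10.8%, 15.7%, 7.78% and 6.81% in all live 1 and 2 and sorted CAF 1 and 2, and in ductal cells 0.573%, 3.47%, 1.04% and 0 of 127 cells, which allows up to 2.36%. Before thinning the median depth was 11088 UMIs in mesothelial cells of all live 1, 7149 in fibroblasts and 19156 in ductal cells. Background RNA was gauged by Lyz2, a macrophage gene that these classes should lack: 9.46% and 12.2% of all live fibroblasts and 7.63% and 12.7% of all live ductal cells had a UMI of it, against 95.9% and 99.3% of macrophages. In sorted CAF 1 and sorted CAF 2 Lyz2 was found in 0.556% and 2.46% of fibroblasts and in 0 mesothelial cells of either. The Isg15 shares there were 7.78% and 6.81% in fibroblasts, below the 10.8% and 15.7% of all live 1 and 2. In mesothelial cells of these sorted libraries they were 13.5% and 17.1%. The Isg15 share of all live ductal cells lay below their Lyz2 share. Isg15 there was at 0.162 and 0.169 of its level in leukocytes, and the leukocyte genes at most at 0.0210 and 0.0563 of theirs. These ratios gauge RNA of leukocytes only, and Isg15 was higher in fibroblasts than in macrophages of both libraries. The part of background RNA in the ductal values was not tested.

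After thinning to 1500 UMIs, few cells held several members at once. At least 3 of the 12 core members were found in 4 of 118 mesothelial cells of all live 1 (3.39%), 8 of 141 in sorted CAF 1 (5.67%) and 3 of 35 in sorted CAF 2 (8.57%). The share was 2.03%, 4.35%, 1.11% and 1.34% in fibroblasts of all live 1 and 2 and sorted CAF 1 and 2, 1.92% and 1.25% in all live macrophages, and at most 0.286% in ductal cells. Without thinning it was 55.9%, 38.3% and 60.0% in the mesothelial cells and 8.89% to 19.6% in the fibroblasts of these libraries. After thinning, inflammatory-like fibroblasts held such cells as 5 of 38 in all live 2 (13.2%) and 9 of 308 in sorted CAF 2 (2.92%), against 0 of 22 in all live 1 and 1 of 21 in sorted CAF 1. Myofibroblast-like fibroblasts held 0 of 58 in all live 2, 2 of 472 in sorted CAF 2, 2 of 46 in all live 1 and 1 of 38 in sorted CAF 1. This class is a range cut from a count per cell, not a cell type.

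The wider pathway was followed with 75 further genes, tested in the same fits at the same threshold. Few transcripts of the listed interferons were counted. No UMI was counted for Ifnb1, Ifna1, Ifna2, Ifna4, Ifnk, Ifnl2 or Ifnl3 in any library, and Ifng had 2 UMIs in all live 2. Ifne, an epithelial type I interferon, had 29 and 34 UMIs in all live 1 and sorted CAF 1. It had 1 and 0 in all live 2 and sorted CAF 2. Of the Ifna genes only those named were followed, and a count of 0 at this depth does not show that a gene was silent. Of 33 further interferon-stimulated genes tested in the all live libraries, 15 were lower in ductal cells than in macrophages (9.81% of all genes). Isg20, a 3'-to-5' exonuclease, was the 1 gene of these that was higher (10.8% of all genes). In fibroblasts against macrophages 2 of the 33 were higher, Iigp1, a GTPase of intracellular defence (4.95 ± 1.06), and Ifi205 (4.43 ± 0.70), and 4 lower. Over all genes 19.1% were called in this comparison and 11.8% were higher, a larger share than 2 of 33. Of 28 such genes tested in the sorted CAF libraries, 15 were higher in mesothelial than in ductal cells and 0 lower (15.9% of all genes called, 10.6% higher). In fibroblasts 13 were higher than in ductal cells and 1, Isg20, was lower (-1.88 ± 0.40), where 14.2% of all genes were higher and 9.07% lower. Iigp1 was at 15.8, 52.2, 14.3 and 48.8 CPM in fibroblasts of all live 1 and 2 and sorted CAF 1 and 2, and at 0.281 and 1.36 CPM in all live macrophages. Of the receptors, Ifngr1, a chain of the interferon-gamma receptor, was lower in fibroblasts than in macrophages (-2.01) and lower in mesothelial than in ductal cells (-1.86), the only receptor gene to fall in either comparison, and Ifnar2 was higher in mesothelial than in ductal cells (2.02).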

How the data were processed

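The authors deposited raw, unnormalized UMI counts per gene and barcode; the other deposited text tables hold names only. The submitters' processing notes list Cell Ranger 2.0.0, CASAVA 1.4 and the build mm10. The rule that selected barcodes, and how reads shared by similar genes were counted, are not given in the sources used here. GEO speaks of 8 samples with technical replicates; each of the 4 libraries counted as 1 sample. An EpCAM antibody is not in the listed stain.

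From the counts, barcodes under 500 genes or above 10% mitochondrial UMIs were dropped, leaving 7984 of 8282. Scrublet's own threshold marked 39 cells (0.488%), so 157 cells with the highest doublet scores, 0.8% per 1000 barcodes, were left out instead. Scanpy 1.11.5 clustered the rest without the interferon genes (2000 variable genes, 30 principal components, 15 neighbours, Leiden resolution 1; 27 clusters). Clusters 15, 17 and 26 (368 cells) stayed unnamed and entered no class. Raw UMIs were summed per library and class of at least 20 cells and tested two-sided with edgeR 4.0.16 (TMM, filterByExpr, R 4.3.3); standard errors were taken as the absolute log2 fold change divided by the root of the F statistic. DESeq2 1.42.0 was an alternative, and the test was checked on simulated data. CPM intervals are exact Poisson and shares exact Clopper-Pearson intervals at 95%; they cover counting error only. A level or share of 0 is given with that of 3 UMIs or cells. Shares of all genes with the same order cover genes with at least 1 UMI in the sums compared.

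The planned fibroblast subclusters left 14 inflammatory-like cells in sorted CAF 1, under the minimum of 20, so the states are the main clusters 2 and 7. Cluster 8 stayed in the fibroblast class but entered neither state. Libraries with the same number share it in their titles and a prefix in their descriptions, and the series title gives 2 tumors, so they were treated as 1 tumor; they deviated from the group means together (correlation 0.628 over genes in fibroblasts and 0.799 in ductal cells), so the tumor served as the block. All members could be named for their levels. In a test the text names up to 10 members past the threshold with the largest fold change and the same direction in both tumors, or, where none passed, up to 5 that passed with the block. Of the wider list up to 5 per group are named. The members, lists and tests were chosen with earlier results of these data known. Some genotype details and 1 gene of the wider list are not reported here.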

Additional observations from a re-analysis of the deposited data

Results flagged for a closer look

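The inflammatory-minus-myofibroblast difference of 9 members differed between the tumors by a test of the difference itself (edgeR's quasi-likelihood test, Benjamini-Hochberg adjusted p from 0.000411 to 0.0489). On the log2 scale, tumor 2 minus tumor 1, it was 5.82 for Irf7, 5.71 for Isg15, 4.21 for Rtp4, 3.89 for Bst2, 3.79 for Zbp1, 3.69 for Oasl2, 3.12 for Ifi27l2a, 2.08 for Lgals3bp and 1.24 for Ifitm3. The test was chosen after the values of the 2 tumors were seen, and 2 tumors cannot separate a difference between animals from any other difference between the tumors' libraries.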

How the results depend on the processing

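Counts of members called moved by over 1.5 times under few settings. Fibroblasts between fractions had 0 members called, 5 with the replicate block (the tumor), and 0 to 1 when 1 library was left out (1 without all live 1). The inflammatory-like against myofibroblast-like count of 1 became 12 with the replicate block, 3 with no filter on low counts, and 0 with DESeq2, with doublets kept, with both fractions of a tumor summed, and with subclusters summed. Fibroblasts against macrophages fell from 2 to 1 at Leiden resolution 0.5. Neutrophils rose from 0 to 1 with no filter and at resolution 0.5, and mesothelial cells against fibroblasts from 2 to 8 with no filter and 4 with DESeq2. The block changed no other count by over 1.5 times. The tumor difference of the states, an added test whose settings were all chosen after the data were seen, had 9 members called, 5 with DESeq2 (which gave 4 others no adjusted p) and 4 to 10 when 1 library was left out. Ifi27l2a in fibroblasts between fractions, -0.58 without the block, ranged from -1.67 to 0.27 when 1 library was left out, and turned to 0.27 without all live 2 and to 0.020 without sorted CAF 1. The cause was not tested.

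Shares of cells follow the depth and the number of core members asked for. Cells with at least 2 of 12 core members were 16.1%, 17.7% and 28.6% of mesothelial cells (all live 1, sorted CAF 1, sorted CAF 2), 4.46% of fibroblasts of sorted CAF 2 and 1.05% of ductal cells of all live 1. With at least 4 the share was 0% in mesothelial cells of sorted CAF 2, fibroblasts of sorted CAF 1 and ductal cells of all live 1, and 0.446% in fibroblasts of sorted CAF 2. Thinned to 3000 UMIs, cells with at least 3 were 11.9% and 13.5% of mesothelial cells of all live 1 and sorted CAF 1, and 6.08% and 3.79% of fibroblasts of all live 1 and sorted CAF 2; Isg15 was in 21.2% of mesothelial cells of all live 1 and 10.9% of fibroblasts of sorted CAF 2. With no thinning, cells with at least 3 were 55.9%, 38.3% and 60.0% of mesothelial cells, 19.6%, 8.89%, 12.2% and 16.2% of fibroblasts (all live 1, sorted CAF 1, all live 2, sorted CAF 2) and 7.73%, 5.59% and 5.20% of ductal cells (the same order without sorted CAF 2), and Isg15 was in 48.3%, 35.5% and 45.7% of mesothelial cells, 27.0%, 16.7%, 31.3% and 27.8% of fibroblasts and 6.30% and 5.11% of ductal cells.

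Of values for single genes under the settings that keep all libraries, 272 kept their direction and side of the threshold, 12 lost it and 5 gained it. With 1 library left out, 82 values counted as the same. Another 38, without a test, moved by at least the standard error of the main fit, and 2 reversed direction. The rest changed side of the threshold. Leaving out 1 library in the class comparisons leaves no residual degree of freedom, so tumor values stand there without a test. Dendritic, T or NK, and B or plasma cells against macrophages were not run, nor the fibroblast states at resolution 0.5.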
